A study of Homo sapiens with 16 samples.

Results

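The genes of the Mediator complex were described in H1299 cells after knockdown (KD) of YEATS2. They were taken from the deposited count table as every gene whose symbol begins with MED and a digit, together with CDK8, CDK19 and CCNC. This gave 34 of the 12676 genes in the table, and all 34 passed the filter on low counts. They comprise all 33 subunit genes of the human complex that were listed by module, and MED15P9, a pseudogene of MED15. The RNA-seq part of the series holds 4 libraries, 2 from cells infected with a virus that expressed a non-targeting shRNA (shNT, named shCtrl in the sample titles) and 2 from cells infected with a virus that expressed an shRNA against YEATS2 (shYEATS2). H1299 cells derive from a human lung carcinoma of the non-small cell kind. All 4 libraries come from cells kept with virus and polybrene (8 µg/ml) for 48 h and then selected with puromycin at 2 µg/ml for 4 to 7 days, as the labels give it. The methods of the study state a shorter selection. The infected cells were selected as populations, and the study describes the duplicates as independent biological replicates. The labels do not name the shRNA, but the study states that its duplicate RNA-seq used the YEATS2 shRNA with efficient KD. It also reports RNA-seq with another shRNA that gave partial KD. With a single shRNA, loss of YEATS2 and any other effect of that shRNA cannot be told apart. The 12 ChIP-seq samples of the series were not analysed here.

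Mediator is a large coactivator that bridges transcription factors bound at enhancers and promoters to RNA polymerase II. Its head and middle modules contact the polymerase and the general factors, its tail module contacts activators, and MED14 runs through the complex as a scaffold that joins these parts. A separable kinase module, built from CDK8 or CDK19, cyclin C (CCNC), MED12 or MED12L and MED13 or MED13L, binds the core reversibly and hinders its contact with the polymerase. YEATS2 is a subunit of the ATAC histone acetyltransferase complex, and Mediator is a separate coactivator, so the comparison asks whether the RNAs of its subunits moved when YEATS2 was depleted.

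The genes in the table received between 34718921 and 39417787 reads per library. YEATS2 itself fell from 4482 and 4104 scaled reads in shNT to 665 and 673 in shYEATS2, where scaled reads are counts divided by the library size corrected with the trimmed mean of M values (TMM) and multiplied by the mean of that size over the 4 libraries. This is -2.68 on the log2 scale (standard error, SE, 0.10), with a false discovery rate (FDR) of 0.000583. The keratin genes KRT8 and KRT18 and the mesenchymal genes VIM and CDH2 were in the table, and their log2 fold changes lay between -0.81 and 0.36 without an FDR under 0.01, whereas EPCAM, KRT19 and all 9 markers listed for leukocytes, endothelium, fibroblasts and liver were not among its genes. In bulk RNA, fewer cells that express a gene and less of its RNA per cell cannot be told apart.

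Few Mediator genes passed the test in YEATS2 KD cells, and those that did moved in opposite directions, MED28 and MED22 down and MED15, MED13L, MED29 and MED12 up. Of the 34 genes, 2 were lower and 4 higher at an FDR under 0.01 in the quasi-likelihood test of edgeR with Benjamini-Hochberg adjustment over all genes tested. These 6 genes are 17.6% of the members, and 25.3% of all genes tested were called, 12.5% lower and 12.9% higher. The share called among the Mediator genes was thus not above that of the table. With library totals in place of TMM, 1 member was lower and 5 were higher, against 9.2% and 18.6% of all genes. The median log2 fold change of the 34 members was -0.02, beside -0.00188 over all genes tested, and the members ranged from -1.20 for MED28 to 1.05 for MED15. The median size of the change regardless of sign was 0.24 on the log2 scale in the members and 0.37 over all genes. These medians are not matched for depth, since shNT means ran from 103 to 5619 scaled reads in the members and from 1.08 to 425451 over all genes. Both shYEATS2 libraries lay above both shNT libraries in 14 members and below them in 15, and the groups overlapped in 5. In the whole table these orders held for 39.7% and 39.8% of genes. Summed over the 33 subunit genes, the scaled reads were 72146 and 69543 in shNT and 77485 and 77714 in shYEATS2.

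The share of all genes called depended on the setting, and the members' counts were set against it. The study's own test, exactTest, rerun here with TMM scaling, called 19.7% of all genes lower and 20.5% higher, and 4 and 5 members. The study itself reported many more genes raised than lowered at an FDR under 0.01, an imbalance that this rerun with TMM scaling did not show. With library totals in place of TMM, the quasi-likelihood test called 9.2% of all genes lower and 18.6% higher. The study's methods do not name its scaling, and the source of the difference was not tested. A replicate block called 21.4% and 21.6%, and also 4 and 5 members. DESeq2 called 17.3% and 17%, and limma-trend 12.8% and 13%, with 2 and 4 members each. An upper-quartile scaling called 12.6% and 14.4%, and a mean count of at least 100 called 12.6% and 13.4%. An FDR under 0.05 was reached by 23.8% and 24.4% of all genes and by 6 members in each direction. With length, GC content and expression level adjusted for, 11.6% and 11.7% were called, and 3 and 3 members. The shares were 6.71% and 6.11% without shNT replicate 1, and 7.25% and 6.96% without shNT replicate 2, with 1 and 2 members each time. They were 16% and 15.7% (2 and 4 members) without shYEATS2 replicate 1, and 8.41% and 7.9% (1 and 3 members) without shYEATS2 replicate 2.

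**Figure D1:**
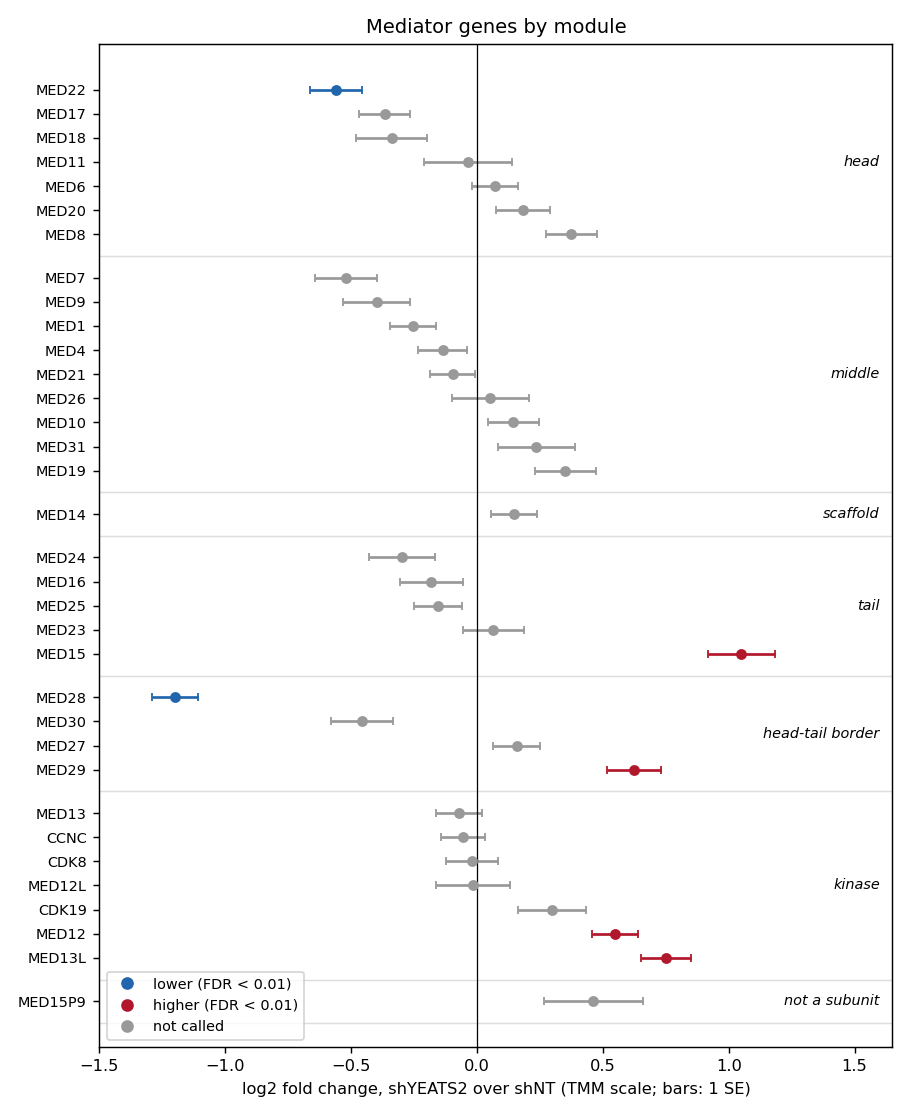
Log2 fold change of each Mediator gene between shYEATS2 and shNT cells, grouped by module. Bars are 1 standard error, with 2 libraries a group and the spread estimated partly across genes. MED28 and MED22 are called lower and MED12, MED29, MED13L and MED15 higher, while the other 28 genes lie between -0.52 and 0.46.

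**Figure D2:**
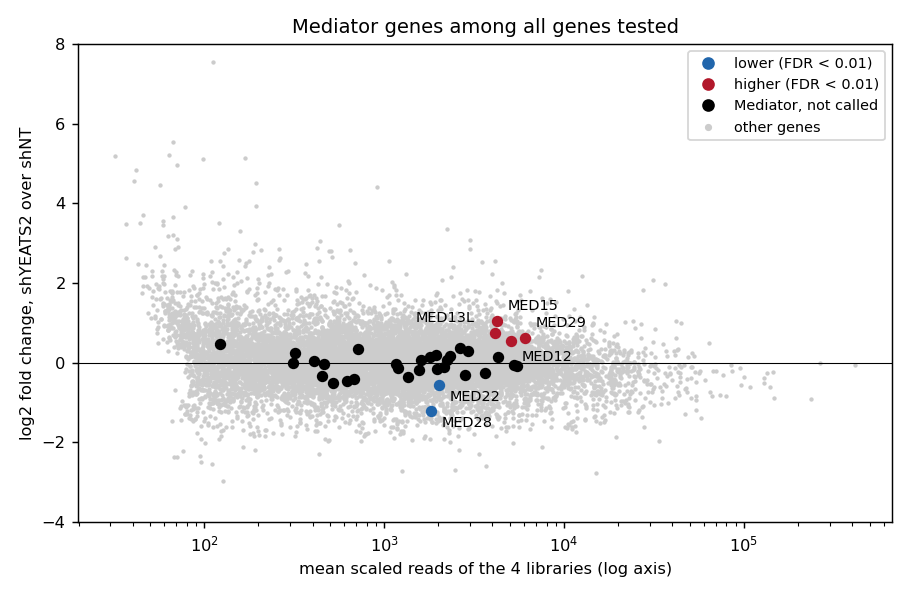
Log2 fold change against the mean scaled reads of the 4 libraries, on a log axis, for all 12676 genes in grey and the 34 Mediator genes in colour or black. The Mediator genes run from MED28 at -1.20 to MED15 at 1.05, and the median of all genes is near 0.

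MED28 had the largest fall among the members. It encodes a small metazoan subunit at the border of head and tail that is also known for binding to cytoskeletal and signalling proteins. MED28 (ENSG00000118579) lies on chromosome 4 of GRCh37 (hg19) from 17616264 to 17635728 on the plus strand. It had 2535 and 2538 scaled reads in shNT and 1088 and 1121 in shYEATS2. The knockdown libraries were both far below both controls, and the replicates of each group nearly coincided. The log2 fold change of -1.20 had an SE of 0.09 (FDR 0.000826), so that the level in KD cells was 0.435 of that in shNT cells. Its size was at percentile 93.1 of all genes tested. The call held in all 14 alternatives, with log2 fold changes from -1.32 to -1.08. On the opposite strand, FAM184B overlaps 32.1% of the exon bases of MED28 and is not among the genes of the table, and the library kit does not mark strand.

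MED22 was the other gene called lower. It encodes a head subunit that pairs with MED11 at the base of that module. MED22 (ENSG00000148297) lies on chromosome 9 from 136205149 to 136214986 on the minus strand. Its scaled reads were 2289 and 2528 in shNT and 1703 and 1560 in shYEATS2, without overlap of the groups. On the log2 scale it differed by -0.56 (SE 0.10, FDR 0.00582). With library totals the log2 fold change was -0.44 and the FDR 0.0127, and the FDR ranged up to 0.0364 over the 14 alternatives, of which 10 kept the call.

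MED15 had the largest rise. It is a tail subunit that receives the activation signal of SREBP and SMAD factors. MED15 (ENSG00000099917) lies on chromosome 22 from 20850200 to 20941919 on the plus strand. Its scaled reads were 3090 and 2454 in shNT and 6060 and 5421 in shYEATS2. The mean rose from 2772 ± 450 to 5740 ± 451 (SD, n = 2 each), a difference well beyond the gap between replicates, although the shNT replicates of MED15 differed more than those of any other member, by 0.33 on the log2 scale. This was a log2 fold change of 1.05 (SE 0.13, FDR 0.00192), a rise of 2.07-fold. It stayed between 0.89 and 1.22 in the 14 alternatives, and the call held in each. MED15P9, a pseudogene on chromosome 2 that resembles MED15, had 101 and 105 scaled reads in shNT and 147 and 137 in shYEATS2. The log2 fold change of 0.46 had an SE of 0.20 (FDR 0.0917). Reads of near-identical copies can be split between them, so the values of MED15P9 and MED15 are uncertain to that extent.

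MED13L, MED29 and MED12 were the other genes called higher. MED13L and MED12 belong to the kinase module, MED12 being the subunit that activates CDK8 and MED13L the paralog of the subunit that links the module to the core. MED13L (ENSG00000123066), on chromosome 12 from 116395710 to 116715498, had 3134 and 3013 scaled reads in shNT and 4906 and 5434 in shYEATS2. All 14 alternatives kept its call, and it rose by 0.75 on the log2 scale (SE 0.10, FDR 0.00207). MED12 (ENSG00000184634), on chromosome X from 70338393 to 70363953, had 4178 and 4066 scaled reads in shNT and 6187 and 5867 in shYEATS2. On the log2 scale it differed by 0.55 (SE 0.09, FDR 0.00417). With fold changes adjusted for length, GC content and expression level, it was 0.39 with an FDR of 0.0139, and over the 14 alternatives the FDR reached 0.0320. MED29 (ENSG00000063322), a metazoan subunit of the head and tail border on chromosome 19 from 39881943 to 39891281, had 5074 and 4478 scaled reads in shNT and 7007 and 7697 in shYEATS2. This was a log2 fold change of 0.62 (SE 0.11, FDR 0.00469), and 11 of the 14 alternatives kept its call. In each of these genes both knockdown libraries were above both controls, an order that 39.7% of all genes tested had. MED28 and MED29, which belong to the same group of metazoan subunits, thus moved in opposite directions, and the reads of MED28 relative to MED29, each per kilobase of merged exons, were 0.175 and 0.198 in shNT and 0.0543 and 0.0510 in shYEATS2.

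**Figure D3:**
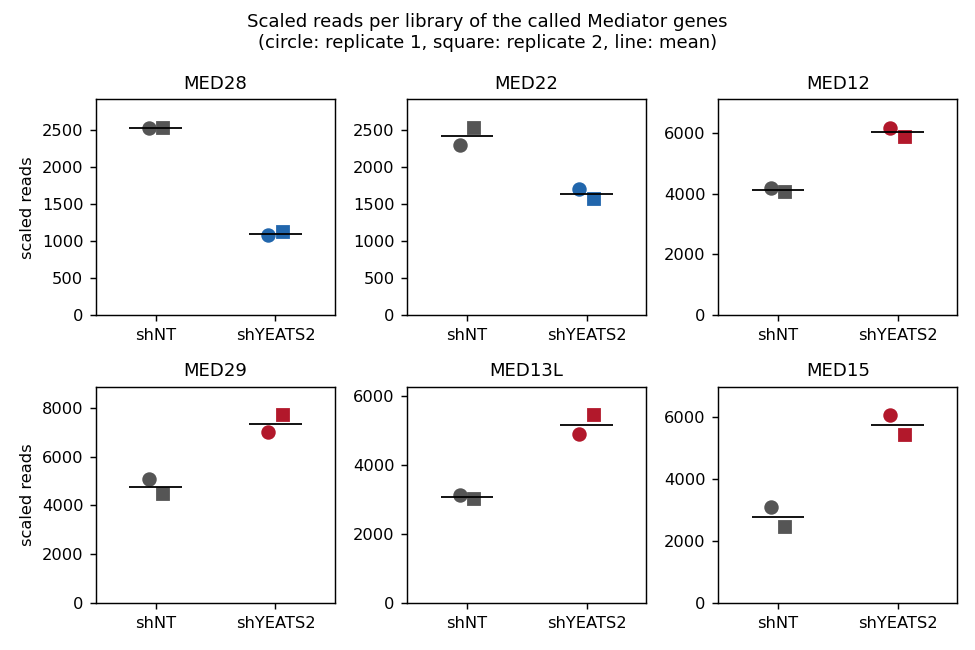
Scaled reads of the 6 called Mediator genes in each library, with the mean of each group as a line and every axis starting at 0. In all 6 panels both shYEATS2 libraries lie on the same side of both shNT libraries, with the widest gap relative to the replicates in MED28. The 6 genes were picked by the test on these libraries. Over all genes tested, 39.7% had both shYEATS2 libraries above both shNT libraries and 39.8% below them.

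The promoters of the 4 genes called higher are shown, since they rose in the same comparison. MED28 and MED22, the genes called lower, had no entry in the promoter set used, so they could not be searched. The promoters shown are from RefSeq (GRCh38.p14) and run from 250 bases before to 50 bases after the start, 5′ to 3′ on the strand of the gene. Capitals mark matches to 6 motifs searched on both strands. These were the site of ETS factors with the letters CCGGAAG, the GC box with the letters GGGCGG, the CCAAT box as its name spells it, the YY1 site with the letters AAGATGGCG, the CRE with the letters TGACGTCA and the TATA box with the letters TATAAA. A capital run can hold overlapping matches, as it does in MED13L. MED15 has a second promoter in RefSeq, which held no match and is not shown.
MED15, chr22:20507360-20507659, plus strand: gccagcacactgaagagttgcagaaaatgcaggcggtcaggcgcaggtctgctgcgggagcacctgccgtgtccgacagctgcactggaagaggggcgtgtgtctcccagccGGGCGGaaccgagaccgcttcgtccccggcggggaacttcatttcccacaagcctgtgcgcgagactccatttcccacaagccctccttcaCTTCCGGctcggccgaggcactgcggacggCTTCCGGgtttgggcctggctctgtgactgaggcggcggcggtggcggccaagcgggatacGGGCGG
MED13L, chr12:116277644-116277943, minus strand: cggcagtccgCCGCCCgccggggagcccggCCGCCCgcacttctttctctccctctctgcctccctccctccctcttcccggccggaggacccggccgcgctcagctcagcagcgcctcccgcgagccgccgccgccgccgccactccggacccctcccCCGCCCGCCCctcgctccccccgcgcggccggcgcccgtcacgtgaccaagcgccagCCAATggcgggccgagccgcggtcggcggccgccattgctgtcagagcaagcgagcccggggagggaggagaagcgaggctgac
MED29, chr19:39391128-39391427, plus strand: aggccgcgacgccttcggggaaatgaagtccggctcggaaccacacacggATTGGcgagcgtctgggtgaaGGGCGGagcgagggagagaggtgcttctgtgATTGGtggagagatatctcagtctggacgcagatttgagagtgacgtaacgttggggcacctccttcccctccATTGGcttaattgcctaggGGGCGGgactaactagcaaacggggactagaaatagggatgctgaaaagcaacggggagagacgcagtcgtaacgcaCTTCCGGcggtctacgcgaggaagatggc
MED12, chrX:71118346-71118645, plus strand: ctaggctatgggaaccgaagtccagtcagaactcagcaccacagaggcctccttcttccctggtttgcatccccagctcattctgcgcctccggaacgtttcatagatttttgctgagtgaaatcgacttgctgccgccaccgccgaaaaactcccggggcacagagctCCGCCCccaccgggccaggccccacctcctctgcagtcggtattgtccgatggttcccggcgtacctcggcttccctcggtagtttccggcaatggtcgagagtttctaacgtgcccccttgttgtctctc
The GC box was the motif that all 4 held, with 2 matches in MED15, 4 in MED13L, 2 in MED29 and 1 in MED12. It was present in 16 of the 25 member genes with a RefSeq promoter (64%), and in 78.6% of the 9085 genes of the count table with one and 45% of all 35116 promoters. MED15 and MED29 also held the ETS motif, which 7 of the 25 member genes had (28%) beside 23.3% of the genes of the table and 10.3% of all promoters. CCAAT was present in 10 member genes (40%, against 43.7% and 34.6%). The YY1 motif was in 4 members (16%, against 5.05% and 1.75%), namely MED1, MED16, MED18 and MED25, which were not called. The printed window of MED29 ends on the first letters of the YY1 motif, so a match there could not be scored. The TATA box was in 2 members (8%, against 7.68% and 11.5%), and the CRE in 1 (4%, against 3.89% and 1.85%). A match says only that the letters occur in the window.

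The kinase module held both called and uncalled paralogs. Of its 7 genes, MED13L and MED12 were higher and none was lower. That is 28.6% of the module, beside 25.3% of all genes called (12.9% higher and 12.5% lower). CDK19 had 2400 and 2867 scaled reads in shNT and 2950 and 3525 in shYEATS2, or 0.30 on the log2 scale (SE 0.13, FDR 0.105). MED13 had 5813 and 5424 in shNT and 5320 and 5369 in shYEATS2 (log2 fold change -0.07). CCNC, the cyclin that both kinases need, had 5349 and 5399 in shNT and 5135 and 5203 in shYEATS2 (log2 fold change -0.06). CDK8 had 1186 and 1165 in shNT and 1104 and 1214 in shYEATS2 (log2 fold change -0.02). MED12L had 297 and 332 in shNT and 297 and 325 in shYEATS2 (log2 fold change -0.02). These last 4 genes did not pass the test, with FDR values from 0.538 to 0.941, and with library totals the sign of each was the opposite. The sum over the 7 genes was 22358 and 22266 scaled reads in shNT and 25899 and 26937 in shYEATS2. This sum includes MED13L and MED12, while the other 5 genes of the module were not called.

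A ratio of 2 genes within a library does not depend on its scaling. Per kilobase of merged exons, the ratio of MED13L to MED13 was 0.208 and 0.214 in shNT and 0.356 and 0.390 in shYEATS2. The difference of the log2 ratios was 0.82, and all libraries of the groups were apart. MED12L to MED12 was 0.0859 and 0.0987 in shNT and 0.0580 and 0.0670 in shYEATS2, a log2 difference of -0.56 that also separated the groups. CDK19 to CDK8 was 1.26 and 1.53 in shNT and 1.66 and 1.80 in shYEATS2, a log2 difference of 0.32 that was close to the gap between the shNT replicates. With 2 libraries a group, the exact permutation test (two-sided) of each of the 3 ratios gave p = 0.333, the smallest p it can give. The ratios themselves depend on the exon models, since MED13L to MED13 was 0.571 and 0.588 in shNT and 0.976 and 1.07 in shYEATS2 with the length of the canonical transcript, whereas the differences between the groups do not.

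**Figure D4:**
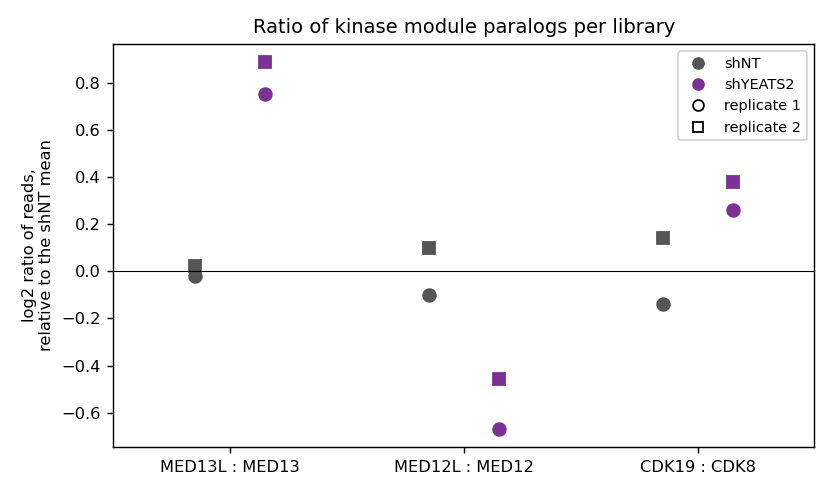
Log2 ratio of the reads of 3 paralog pairs of the kinase module in each library, set to a mean of 0 in shNT. The shYEATS2 libraries lie above both shNT libraries for MED13L to MED13 (difference 0.82) and CDK19 to CDK8 (0.32) and below them for MED12L to MED12 (-0.56).

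The 7 head genes had 1 call, MED22 (14.3%, beside 25.3% of all genes), and a median log2 fold change of -0.04. MED8, which with MED18 and MED20 forms the movable part of the head, had 2286 and 2325 scaled reads in shNT and 2808 and 3167 in shYEATS2. The log2 fold change of 0.37 had an SE of 0.10 (FDR 0.0226), and the FDR in the alternatives ran from 0.00743 to 0.124. MED17, the central head subunit, had 1574 and 1491 scaled reads in shNT and 1236 and 1141 in shYEATS2. On the log2 scale it differed by -0.37 (SE 0.10, FDR 0.0237), with the FDR in the alternatives ranging from 0.00779 to 0.154. Neither gene overlapped between the groups, and neither passed 0.01. The other head genes were MED18 at -0.34, MED11 at -0.04, MED6 at 0.07 and MED20 at 0.18. The shYEATS2 replicates of MED11 differed by 0.47 on the log2 scale, the most of any member. Overlap with TXNDC17 on the opposite strand covers 58.4% of the exon bases of MED31, a middle subunit, and reads of the pair cannot be told apart there without strand.

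None of the 9 middle genes was called by the quasi-likelihood test of edgeR (3 were lower and 1 higher at an unadjusted p under 0.05; exactTest called MED7), and their median log2 fold change was -0.10. MED7, which pairs with MED21 in the hinge of the middle module, had 584 and 643 scaled reads in shNT and 419 and 437 in shYEATS2. At -0.52 on the log2 scale (SE 0.12, FDR 0.0138) it lay just outside the threshold, and the FDR in the alternatives ran from 0.00221 to 0.113. MED9 had 812 and 727 scaled reads in shNT and 632 and 536 in shYEATS2, or -0.40 on the log2 scale (SE 0.13, FDR 0.0444). The values of the remaining middle genes were -0.25 for MED1, the contact of nuclear receptors, -0.14 for MED4, -0.10 for MED21, 0.05 for MED26, the subunit that recruits elongation factors, 0.14 for MED10, 0.24 for MED31 and 0.35 for MED19. MED14, the scaffold, had 4174 and 3951 scaled reads in shNT and 4552 and 4452 in shYEATS2, or 0.15 on the log2 scale (SE 0.09, FDR 0.214).

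The tail genes apart from MED15 were at -0.30 for MED24, -0.18 for MED16, -0.16 for MED25 and 0.06 for MED23, with FDR values from 0.103 to 0.674. MED15 relative to MED24 was 0.637 and 0.554 in shNT and 1.44 and 1.62 in shYEATS2 per kilobase of merged exons. The other tail genes did not pass the test. At the border of head and tail, MED30 had 681 and 762 scaled reads in shNT and 549 and 502 in shYEATS2. This was a log2 fold change of -0.46 (SE 0.12, FDR 0.0222), and the groups did not overlap. MED27 was at 0.16 with an FDR of 0.196. At an unadjusted p under 0.05, 8 members were lower and 6 higher, and 27.8% and 28.7% of all genes passed that limit in each direction.

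Levels of the subunit genes in shNT cells, as TMM-scaled reads per kilobase of merged exons at a depth of 1000000 reads, spanned from 0.602 for MED12L to 34.2 for MED29. MED29 was followed by CCNC at 26.3, MED10 at 25.1, which is a middle subunit, and MED8 at 23.4. MED26 (2.06), MED17 (2.53) and MED13L (2.57) stood just above MED12L. MED28, at 6.35, was in the lower part of this order. CCNC and MED10 differed by less than the spread between the shNT replicates of MED10, and so did MED17 and MED13L relative to the replicates of MED17. With the length of the canonical transcript, CCNC was first at 68.5, followed by MED27 at 43.5, MED10 at 42.5 and MED29 at 36.5. MED12L was last at 0.80 and MED26 was at 3.46, while MED17 and MED13L were at 8.27 and 8.54, so the order depends on the exon models.

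Factors that work with Mediator in the pausing, release and elongation of RNA polymerase II were measured for comparison. The table held 30 of 31 listed genes, of which 3 were lower and 4 higher, 23.3% against the 25.3% of all genes. The falls were in EAF2, an ELL-associated factor, and in SUPT16H and SSRP1, which together form the histone chaperone FACT. EAF2 had 185 and 182 scaled reads in shNT and 97.3 and 93.7 in shYEATS2 (log2 fold change -0.94, FDR 0.00749). SUPT16H had 12409 and 10976 in shNT and 7083 and 5224 in shYEATS2 (log2 fold change -0.93, FDR 0.00442). SSRP1 had 14346 and 14392 in shNT and 10121 and 8857 in shYEATS2 (log2 fold change -0.60, FDR 0.00467). The rises were in AFF1 and ELL2, components of super elongation complexes, EAF1, the paralog of EAF2, and CCNT2, a cyclin of the elongation kinase P-TEFb. AFF1 had 1805 and 1937 scaled reads in shNT and 3098 and 3441 in shYEATS2 (log2 fold change 0.80, FDR 0.00192). ELL2 had 2106 and 1964 in shNT and 3186 and 3743 in shYEATS2 (log2 fold change 0.77, FDR 0.00295). EAF1 had 1132 and 1046 in shNT and 1499 and 1600 in shYEATS2 (log2 fold change 0.51, FDR 0.00795). CCNT2 had 2171 and 2103 in shNT and 2935 and 2992 in shYEATS2 (log2 fold change 0.47, FDR 0.00689). In all 7 genes, which the test picked from these same libraries, the groups were apart. Over all genes tested, 39.7% had both shYEATS2 libraries above both shNT libraries and 39.8% below them. CDK9, the kinase of P-TEFb, was at 0.05, NIPBL, the cohesin loader, at 0.04, and the pausing factor genes NELFA, NELFB, NELFCD and NELFE between -0.37 and -0.16, without passing the test.

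Regulators known to contact or modify single Mediator subunits were listed in the same way, and 23 of 27 were in the table. Of these 1 was lower and 2 higher, 13% against 25.3%, and the median log2 fold change was 0.17. FBXW7, the ubiquitin ligase subunit that marks MED13 and MED13L for degradation, had 428 and 419 scaled reads in shNT and 775 and 917 in shYEATS2 (log2 fold change 1.00, FDR 0.00201). NFE2L2, the NRF2 factor that contacts MED16, had 5161 and 4657 in shNT and 6586 and 6896 in shYEATS2 (log2 fold change 0.46, FDR 0.00994, with FDR values from 0.000721 to 0.0919 in the alternatives). NOTCH1, whose intracellular part is phosphorylated by CDK8, had 441 and 517 in shNT and 270 and 278 in shYEATS2 (log2 fold change -0.80, FDR 0.00521). SREBF1 and SREBF2, which act through MED15, were at 0.54 and 0.45 with FDR values of 0.105 and 0.0552, and in SREBF1 the shNT replicates, at 7169 and 11515 scaled reads, differed so much that the second lay above the first shYEATS2 replicate, at 11391. SMAD2, SMAD3 and SMAD4, which also contact MED15, were between 0.02 and 0.16. ELK1, which contacts MED23, was at -0.41 with an FDR of 0.0628.

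**Figure D5:**
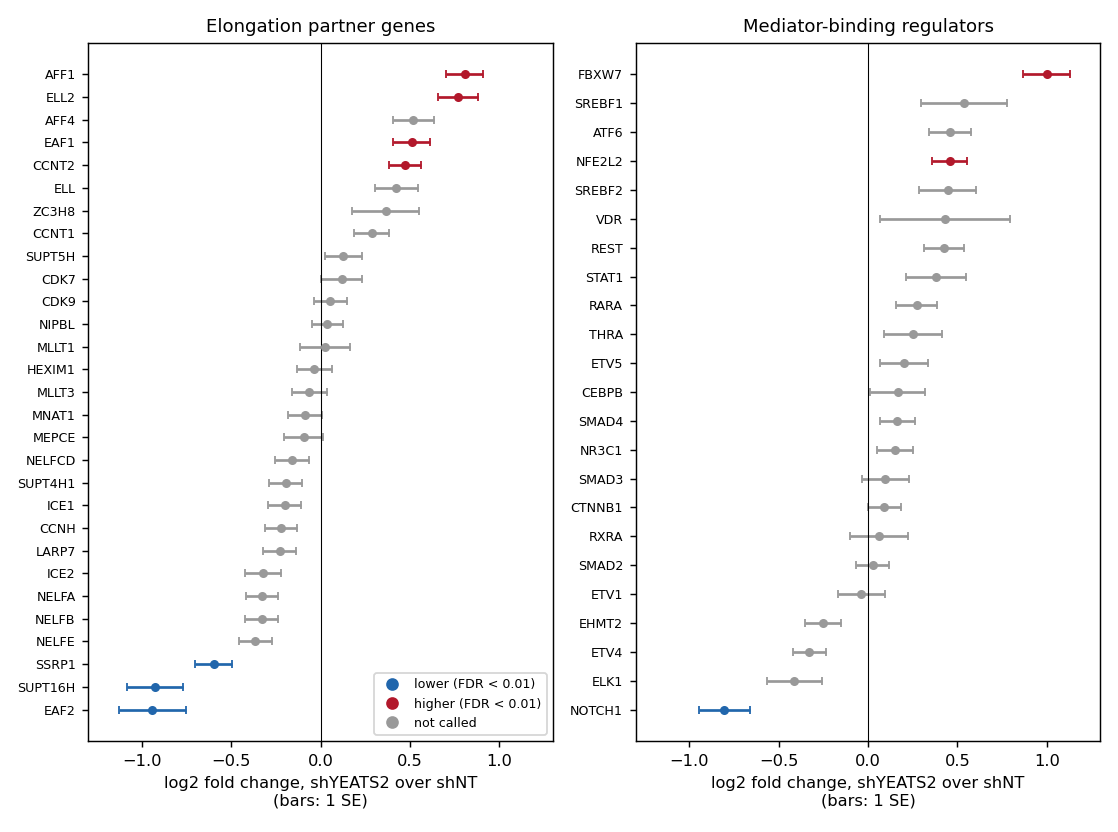
Log2 fold change between shYEATS2 and shNT cells of the elongation factor genes (left, 1 of the 30 not shown) and 23 Mediator-binding regulators (right), with bars of 1 standard error. AFF1 (0.80), ELL2 (0.77) and FBXW7 (1.00) are highest and EAF2 (-0.94), SUPT16H (-0.93) and NOTCH1 (-0.80) lowest among the called genes.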

How the data were processed

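RNA-seq counts of 4 libraries (2 shNT, 2 shYEATS2) were analysed, and groups and replicate numbers were taken from the sample titles. Per the study's methods, the authors used the RNA-Seq unified mapper for alignment (hg19). They deposited raw counts per gene from HTSeq (version 0.6.1p1 in the submitters' notes, which also list TopHat2). The gene annotation is not given in the sources used here. The authors also deposited log2 fold changes, p-values and FDR values of their own comparison, which were not used.

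A minimum of 10 reads in 2 libraries was required, which all 12676 genes met, and genes were tested by the quasi-likelihood test of edgeR 4.0.16 (R 4.3.3) with TMM scaling and Benjamini-Hochberg adjustment at an FDR of 0.01. The study named exactTest, which was an alternative, as were DESeq2 1.42.0, limma-trend (limma 3.58.1, prior count 1), 3 other scalings, other filters, a replicate block, an FDR of 0.05, an adjustment of fold changes for merged exon length, GC content and expression level by splines (4 degrees of freedom, 12465 genes), and leaving out each library. The 14 alternatives counted beside single genes are these without the change of FDR. The scripts were tested on simulated data. Positions and exon lengths come from GENCODE v44 lifted to GRCh37, matched by Ensembl identifier. The counts give the depth of each value. The standard errors are the size of the log2 fold change divided by the square root of the F statistic of the test. They rest on 2 libraries a group and on a spread that is estimated partly across genes.

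The members and lists were chosen with earlier results of these data known. Values per library are given for the called members, the 5 uncalled members with the lowest p, the kinase module, MED14 and, as the pseudogene of MED15, MED15P9. In the other lists they are given for the called genes, and SREBF1 was added after its values had been seen. Some genes are not reported here. The use of canonical transcript lengths was also chosen then.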

Additional observations from a re-analysis of the deposited data

How the results depend on the processing

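MED28, MED15 and MED13L were past the threshold in all 14 alternatives and in the same direction. MED12 and MED29 lost the call without either shNT library, MED29 also without shYEATS2 replicate 2, and MED22 without each of these 3 libraries. Those fits leave 1 library in a group, which is assumed to vary like the other group. The number of members called lower was 2, and 4 with exactTest and with the replicate block, 1 with total counts, 3 once the trend was removed, 6 at an FDR under 0.05 and 1 to 2 with a library left out. The number called higher was 4, and 5 with exactTest, with total counts and with the replicate block, 6 at an FDR under 0.05 and 3 once the trend was removed. It was 2 without either shNT library. The genes added by exactTest were MED7, MED30 and MED8, and those added by the replicate block MED7, MED17 and MED8. The trend is that of fold changes over exon length, GC content and expression level. The median log2 fold change of the members was 0.10 with total counts, 0.12 once the trend was removed, and -0.049 to 0.048 with a library left out. Total counts shift the median of all genes to 0.12.

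The elongation factors called lower numbered 3, and 5 with the replicate block, 7 at an FDR under 0.05 and 0 to 2 with a library left out (0 without shNT replicate 1, and 1 without shNT replicate 2 or shYEATS2 replicate 2). Those called higher numbered 4, and 7 with total counts, 8 at an FDR under 0.05 and 1 to 5 with a library left out (1 without shNT replicate 2, and 2 without shNT replicate 1 or shYEATS2 replicate 2). With DESeq2, exactTest, limma-trend, the upper quartile, a mean count of at least 100 or the replicate block they numbered 6. The share of all genes called moved too, from 12.5% lower and 12.9% higher in the main test. It was 19.7% and 20.5% with exactTest, 21.4% and 21.6% with the replicate block, 9.2% and 18.6% with total counts, and 23.8% and 24.4% at an FDR under 0.05. The counts of both lists are to be read beside these shares and those given with the members. The regulators called lower numbered 1, and 2 with the replicate block, 2 at an FDR under 0.05 and 0 to 1 with a library left out. Those called higher numbered 2, and 4 with exactTest, 4 with total counts, 3 with DESeq2, 6 with the replicate block, 4 at an FDR under 0.05 and 1 to 4 with a library left out (4 without shYEATS2 replicate 1 and 1 without each of the others).

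Alternatives were run singly for the members whose values per library are given, other than MED15P9. Among these, the sign changed in MED13, CCNC, CDK8 and MED12L, which were not called. With total counts MED13 was at 0.048, CCNC at 0.063, CDK8 at 0.10 and MED12L at 0.10. CCNC was at 0.20 once the trend was removed and MED12L at 0.00233 with the upper quartile. With a library left out, CDK8 ranged from -0.090 to 0.046 and MED12L from -0.098 to 0.069. With canonical transcript lengths, CCNC was at 68.5 and MED12L at 0.80 scaled reads per kilobase at a depth of 1000000. The labels do not say that equal replicate numbers share a culture or day. The replicate differences of the groups correlated at 0.40 across genes, which is no test of pairing with 2 pairs, and the block raised the genes called from 3211 to 5457. The filter on low counts removed no gene, so the fit without it is the same. The cause of these changes was not tested. The lowest depth among the members was that of MED15P9, at a mean of 103 scaled reads in shNT and an SE of 0.20.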

Other observations

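The words AAGTTCA and CAAGTTC, which were picked in an earlier analysis of these libraries, were looked for in each member, in the 3′ UTR of its longest coding transcript. The words occurred in 8 of the 33 subunit genes (24.2%), beside 22.04% of the 11431 genes of the table with a 3′ UTR. The 8 genes were CDK8, CDK19, MED4, MED6, MED12L, MED13, MED13L and MED28. MED28, which had the largest fall, held 1 CAAGTTC at position 1942 of a 3′ UTR of 10307 bases, gccatcttctCAAGTTCccctagaaac with the word in capitals. MED13L, which rose, held 1 AAGTTCA, and MED13, at a log2 fold change of -0.07, held 3 words, the most of any member. MED22, the other gene called lower, held none. The presence of a word in a member is a description, and its relation to the fold changes was not tested.

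EAF1 and EAF2, paralogs that both bind ELL proteins, were called in opposite directions, at log2 fold changes of 0.51 and -0.94. EAF2 was counted at 97.3 and 93.7 scaled reads in shYEATS2, and its call was kept in 9 of 14 alternatives and that of EAF1 in 11.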
